A study of Mus musculus with 85 samples.

Results

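MiR-26a-5p and miR-26b-5p (mmu-miR-26a-5p and mmu-miR-26b-5p in the count table) are the guide strands of the miR-26 family, and both were measured as rows of a small RNA count table from 85 mouse hearts. They were taken by name, as 2 of the 1977 mature miRNAs listed in the table, of which 548 had a count in any heart. Each heart came from a female mouse of the Hybrid Mouse Diversity Panel, in which inbred lines of differing genotype are compared. The animals were 16 weeks old and had eaten chow for 8 weeks and, for another 8 weeks, food rich in fat and sucrose (HF/HS). All 85 libraries belong to this single condition, so the data hold no untreated hearts and no comparison between treatments. The title of each library holds a number after the letter S, used here as the library number. The strain of each heart was not used here, and the labels name no second library of an animal, so the spread between libraries, which the trend and permutation p-values measure, holds strain, animal and preparation together.

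MicroRNAs are short RNAs that guide Argonaute proteins to messenger RNAs, mainly through their seed, the bases that follow the first base at the 5′ end. The miR-26 family is expressed in most tissues. Its members lie in the genes of the small C-terminal domain phosphatases (Ctdsp1, Ctdsp2 and Ctdspl), enzymes known to act on RNA polymerase II and on the retinoblastoma protein, and miR-26 is known to target genes of the cell cycle and the Polycomb methyltransferase Ezh2. None of these host or target genes was measured in the count table.

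The mature sequences are shown because they decide which reads can be told apart. All were taken from RefSeq on GRCm38.p6, and 41 of the 51 miRNAs tested here, both members included, matched a mature sequence by name. Capitals mark bases 2 to 8, the seed.
miR-26a-5p: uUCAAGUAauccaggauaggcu
miR-26b-5p: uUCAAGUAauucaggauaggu
Both members carry the same seed, and no other of the 1679 mature miRNAs in the RefSeq set had it. Of the 1977 rows of the count table, 1678 had a sequence in this set, and the rest were not searched. Over their first 21 bases they differ by 2 substitutions, written as the base of miR-26a, the position from the 5′ end and the base of miR-26b: C11U and C21U. MiR-26a-5p is 22 bases long and miR-26b-5p is 21. Any other mature miRNA of the RefSeq set differed from both by at least 8 bases when aligned at the 5′ end.

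MiR-26a-5p is encoded at 2 loci and miR-26b-5p at 1. Mir26a-1 lies on chromosome 9 (GRCm38, 119031796 to 119031885, plus strand) in intron 5 of a protein-coding transcript of Ctdspl (ENSMUSG00000047409.13). Mir26a-2 lies on chromosome 10 (126995530 to 126995613, plus strand) in intron 5 of a protein-coding transcript of Ctdsp2 (ENSMUSG00000078429.9), but in GENCODE M21 an exon of another protein-coding transcript, which has fewer exons, covers it. Mir26b lies on chromosome 1 (74394310 to 74394394, plus strand) in intron 4 of a protein-coding transcript of Ctdsp1 (ENSMUSG00000026176.13). Each precursor is on the same strand as its host gene. In the precursors below, capitals mark both mature arms.
Mir26a-1: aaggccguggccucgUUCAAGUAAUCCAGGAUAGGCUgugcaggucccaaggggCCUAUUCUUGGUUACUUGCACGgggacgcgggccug
Mir26a-2: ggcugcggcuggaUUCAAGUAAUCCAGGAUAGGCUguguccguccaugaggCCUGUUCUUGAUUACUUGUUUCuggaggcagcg
Mir26b: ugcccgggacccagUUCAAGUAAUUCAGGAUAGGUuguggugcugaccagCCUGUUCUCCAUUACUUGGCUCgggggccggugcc
The 5p arm reads the same in Mir26a-1 and Mir26a-2, so its counts cannot be divided between the loci. How reads that match both loci were counted is not given in the sources used here, and its effect on the level of miR-26a-5p was not tested.

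The 3p arms, which differ between the 3 precursors, were close to absent. MiR-26a-2-3p had 27 counts in 24 hearts, miR-26b-3p had 9 counts in 9 hearts and miR-26a-1-3p had 1 count. The 3p arms held 0.193% of the counts from the miR-26a precursors (28 of 14475, 95% Wilson interval 0.134% to 0.279%) and 0.104% of those from the miR-26b precursor (9 of 8668, 0.0546% to 0.197%). These intervals overlap, and the difference in arm use between the members was not tested. Of the 28 counts from the miR-26a 3p arms, 96.4% were from Mir26a-2 (82.3% to 99.4%). Arms differ in stability and in capture by ligation, so this share does not give the output of the loci. Intervals cover counting error only.

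Both members were found in every heart. MiR-26a-5p had 14447 counts and miR-26b-5p 8659, together 2.02% of the 1142199 counts of the series. The count of miR-26a-5p ranged from 19 to 360 per heart with a median of 156, and that of miR-26b-5p from 12 to 218 with a median of 94. The lowest counts of both came from library 14, which had 1457 counts in all, against a median library total of 12248 and a highest of 30202. As a share of the library, miR-26a-5p ranged from 0.610% to 2.06% with a median of 1.23%, a 3.38-fold range. MiR-26b-5p ranged from 0.369% to 1.13% with a median of 0.734%, a 3.05-fold range. Library 46 was lowest in both shares.

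**Figure D1:**
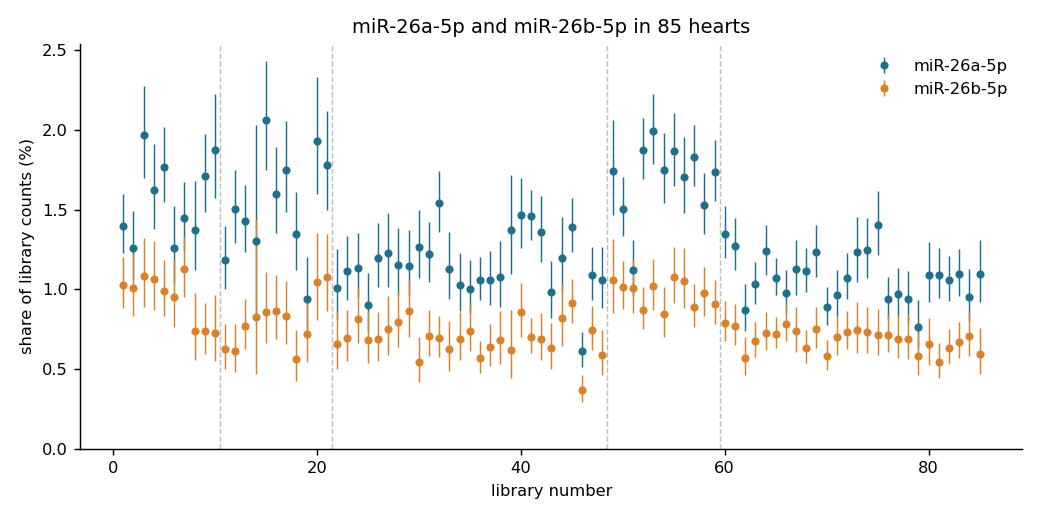
Share of library counts (y axis, %) of miR-26a-5p and miR-26b-5p in each of the 85 hearts, by library number (x axis). Bars are 95% Wilson intervals and dashed lines part the 5 runs of library numbers; miR-26a-5p lies above miR-26b-5p in all 85 hearts, and both shares are higher in libraries 1 to 10 and 49 to 59 than in 22 to 48 and 60 to 85.

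MiR-26a-5p ranked 19 and miR-26b-5p 26 in the order of miRNAs by counts. The closest neighbours of miR-26a-5p in that order lay on both sides of it from heart to heart, and no test between them was made. It was above let-7i-5p, a let-7 family member, in 46 hearts and below it in 39, and above miR-142a-3p, a leukocyte miRNA, in 40 and below it in 44. It was above miR-29b-3p, a regulator of collagen genes, in 58 hearts and below it in 26. MiR-26b-5p was above miR-30d-5p in 52 hearts and below it in 31, and it was above miR-101a-3p in 29 and below it in 54. The most abundant row was miR-1b-5p, with 251291 counts; its locus lies opposite that of a miR-1a precursor, so without strand its reads cannot be told from those of miR-1a. MiR-1a-3p and miR-133a-3p, miRNAs of cardiac and skeletal muscle, held 17.7% and 4.12% of all counts, and the 6 cardiomyocyte miRNAs of the marker list together held 17.7% to 29.3% of each library. Capture of each miRNA by the library kit was not measured, so an order by counts is not an order by molecules. In whole hearts, a lower share of the cells that express a miRNA and less of it per cell cannot be told apart.

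Most tested miRNAs of this series shift along the library numbers, so values were also taken within 5 runs of consecutive numbers: libraries 1 to 10, 11 to 21, 22 to 48, 49 to 59 and 60 to 85. The limits of these runs were set with earlier results of the data known, and levels by run are a description. In that order of runs, the mean share of miR-26a-5p was 1.57% ± 0.256 (SD, n = 10), 1.53% ± 0.335 (n = 11), 1.16% ± 0.196 (n = 27), 1.69% ± 0.238 (n = 11) and 1.08% ± 0.154 (n = 26). That of miR-26b-5p was 0.946% ± 0.154, 0.8% ± 0.166, 0.695% ± 0.112, 0.975% ± 0.0820 and 0.686% ± 0.0689. Both members were thus higher, as plain shares, in libraries 1 to 10 and 49 to 59 than in 22 to 48 and 60 to 85. In libraries 11 to 21 the mean share of miR-26a-5p, at 1.53%, was close to the 1.57% of libraries 1 to 10. On the TMM scale, which corrects each library for shifts in its most abundant miRNAs, the differences were smaller. Mean log2 CPM (counts scaled to a common library size) of miR-26a-5p were 13.80, 13.72, 13.56, 13.82 and 13.54, and those of miR-26b-5p were 13.09, 12.81, 12.84, 13.05 and 12.91. The run means of miR-26a-5p spanned 0.28 and those of miR-26b-5p 0.28 on the log2 scale, against a median span of 0.94 over the 51 tested miRNAs. Without TMM they spanned 0.64 and 0.50, against a median of 0.999.

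The 2 members varied least between hearts of the 51 miRNAs that passed the filter on low counts. The SD of log2 CPM was 0.20 for miR-26b-5p, the lowest of all, and 0.22 for miR-26a-5p, the next lowest, against a median of 0.51 and a highest value of 1.64. MiR-29a-3p followed at 0.23 and miR-27b-3p at 0.29. The medians of log2 CPM were 13.63 for miR-26a-5p, with quartiles of 13.47 and 13.81, and 12.92 for miR-26b-5p, with quartiles of 12.78 and 13.04. Within runs the SDs were 0.20 and 0.18, again the lowest of the 51. The biological coefficient of variation from edgeR, which leaves out counting error, was 0.149 for miR-26a-5p and 0.122 for miR-26b-5p, against a median of 0.332.

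The order depended on the scale. With DESeq2 size factors the members were still the first and the next in the order, with SDs of 0.19 for miR-26a-5p and 0.19 for miR-26b-5p. With TMM factors taken from the other 49 miRNAs, an alternative chosen after the data were seen, miR-26b-5p was first at 0.18 and miR-26a-5p ranked 3 at 0.24, behind miR-29a-3p at 0.22. As CPM without TMM, miR-26b-5p ranked 3 at 0.29 and miR-26a-5p ranked 10 at 0.35, and the lowest SD was that of miR-126a-3p, an endothelial miRNA, at 0.19.

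**Figure D2:**
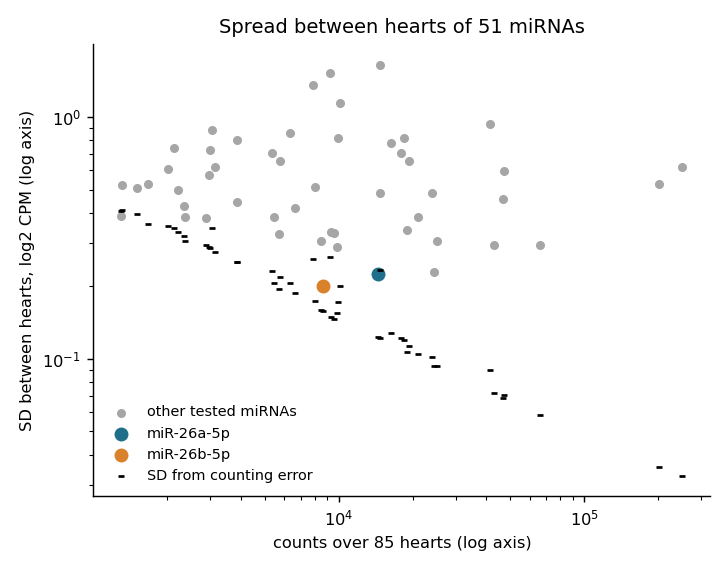
SD of log2 CPM between 85 hearts (y axis, log scale) against counts over all hearts (x axis, log scale) for the 51 tested miRNAs, with the SD that counting error alone gives as a dash at each miRNA's count. MiR-26b-5p at 0.20 and miR-26a-5p at 0.22 are the lowest 2 points, while the median SD is 0.51.

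Counting error was a large part of this spread. From the counts per heart, sampling of reads alone gives an SD of 0.16 for miR-26b-5p, or 62.9% of its variance, and of 0.12 for miR-26a-5p, or 30.1% of its variance. Beyond counting error, SDs of 0.12 and 0.19 on the log2 scale remained, against a median of 0.47 over the 51 miRNAs. By this measure miR-26b-5p ranked 2 and miR-26a-5p 3, lowest first, behind miR-322-5p at 0.0. Within runs, counting error came to 77.7% of the variance of miR-26b-5p and 39.1% of that of miR-26a-5p. The plain shares of both spread more than independent sampling of reads gives. These chi-square tests set the spread against counting error alone and treat each read as a molecule of its own, which was not checked. Against the library totals, chi-square per degree of freedom was 10.6 for miR-26a-5p (chi-square test, p = 9.53e-136) and 4.30 for miR-26b-5p (p = 4.7e-36), with a median of 12.6 over the 51 miRNAs. Within runs it was 4.54 (p = 1.24e-37) and 2.01 (p = 2.38e-07).

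By counts, miR-26a-5p exceeded miR-26b-5p in 85 of 85 hearts. This order and the ratio rest on how reads that match both miR-26a loci were counted. That is not given, and its effect was not tested. The ratio of the counts, which does not depend on the normalization, had a median of 1.65, with quartiles of 1.48 and 1.86. Pooled over hearts it was 1.67, and miR-26a-5p held 62.5% of the counts of both (95% Wilson interval 61.9% to 63.1%). The share of miR-26a-5p was above 50% by its own interval in 78 hearts. The lowest ratio was 1.11 in library 51, with 156 and 140 counts (share 52.7%, 47% to 58.3%). The highest was 2.57 in library 10, with 126 and 49 counts (72%, 64.9% to 78.1%). In 69 of the 85 hearts the interval held the pooled share.

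**Figure D3:**
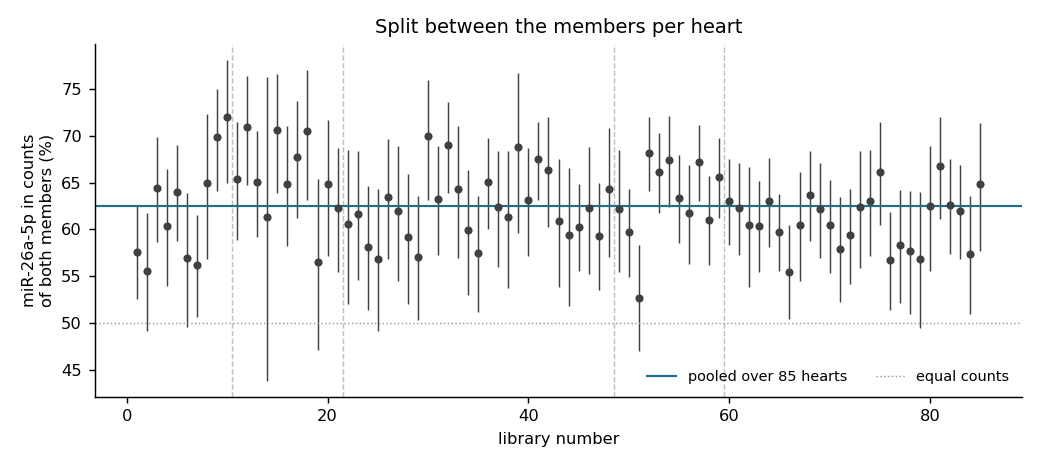
Share of miR-26a-5p in the counts of both members (y axis, %) for each heart by library number (x axis), with 95% Wilson intervals, the pooled share of 62.5% as a solid line and equal counts as a dotted line. Shares run from 52.7% to 72%, with the widest interval in library 14, where the members had 31 counts together.

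Against the same counting error, the split between the members varied by little more. Its chi-square was 158 on 84 degrees of freedom, or 1.88 per degree (chi-square test, p = 1.77e-06), and 1.69 within runs (p = 0.000104). The SD of the log2 ratio was 0.26, of which counting error gives 0.20, and the remaining 0.16 is a 1.12-fold change of the ratio for 1 SD. Pooled ratios in the 5 runs were 1.61, 1.96, 1.68, 1.76 and 1.57. The highest, in libraries 11 to 21, came from the run with the fewest counts, whose share of 66.2% had an interval of 64.1% to 68.3%. The log2 ratio showed no relation past the threshold with library number (r = -0.184, permutation p = 0.0926, adjusted p = 0.185; rho = -0.149, permutation p = 0.173, adjusted p = 0.288; n = 85) or with the log2 library total (r = -0.132, permutation p = 0.23, adjusted p = 0.23; rho = -0.116, permutation p = 0.288, adjusted p = 0.288). With the 2 most distant libraries in number or in total left out, r was -0.229 (permutation test, adjusted p = 0.0748) and -0.170 (adjusted p = 0.126), and within runs it was 0.129 and 0.0820.

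The ratio of the members was among the more even ones in the table. Over the 1275 pairs of tested miRNAs, the SD of the log2 ratio had a median of 0.74, and the pair of miR-26a-5p and miR-26b-5p ranked 7, lowest first. It ranked 10 within runs and 14 beyond counting error. The 2 members had the lowest SDs of the 51 on the TMM scale, which by itself makes their ratio even. These ranks therefore do not show that the members vary together. The ratio of miR-26b-5p to miR-29a-3p ranked 6, at an SD of 0.24, and that of miR-26a-5p to miR-29a-3p ranked 11, at 0.27. Seeds were known for 41 of the 51 tested miRNAs, which leaves out such pairs as miR-23a-3p with miR-23b-3p. Among the 33 pairs found to share a seed, the miR-26 pair was the fourth lowest in SD and, beyond counting error, the sixth. The lowest was miR-199a-3p with miR-199b-3p, whose mature sequences are identical and whose ratio varied by 0.030, less than the 0.21 that counting error gives, so these rows share reads. The pairs let-7f-5p with let-7i-5p, at 0.20, and let-7b-5p with let-7c-5p, at 0.24, came next. Other seed families were less even: miR-27a-3p with miR-27b-3p had an SD of 0.43, miR-30c-5p with miR-30e-5p one of 1.19 and miR-29a-3p with miR-29b-3p one of 1.26.

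**Figure D4:**
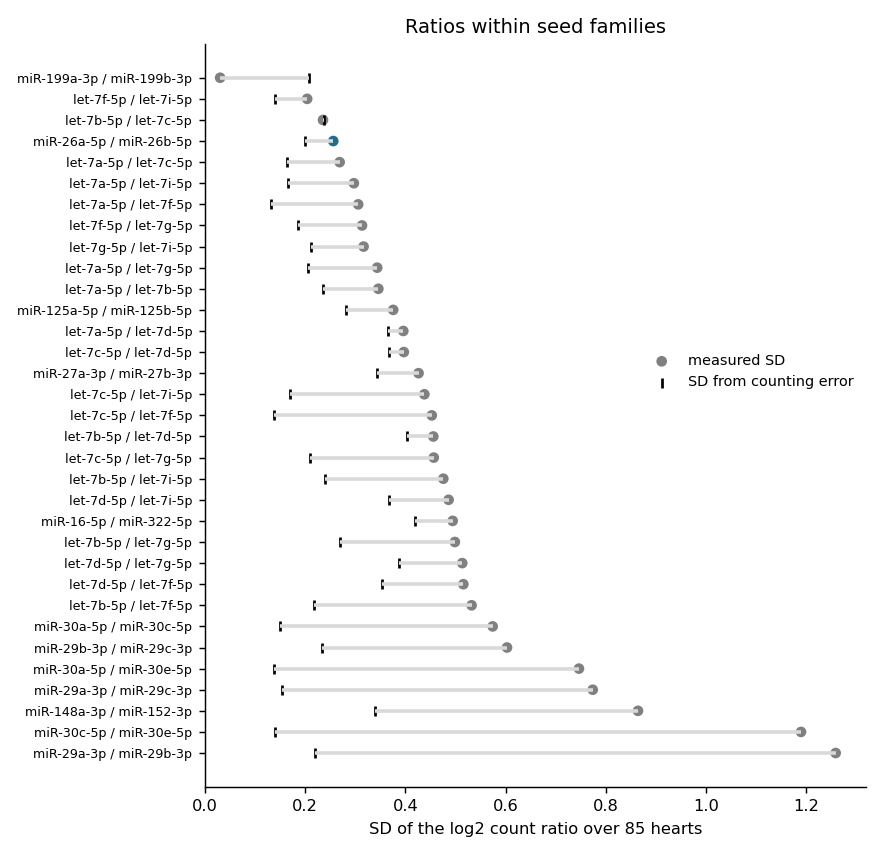
SD of the log2 count ratio over 85 hearts (x axis) for the 33 pairs that share bases 2 to 8 among the 41 tested miRNAs with a known mature sequence (y axis), with the SD from counting error as a tick. The miR-26 pair, in colour, is at 0.26 against 0.20 from counting error, while the miR-29a-3p and miR-29b-3p pair reaches 1.26.

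On the TMM scale the slopes of both members along the library numbers were small, where 86.3% of the 51 tested miRNAs had a trend past the threshold by edgeR's quasi-likelihood test (44, of which 21, or 41.2%, rose and 23, or 45.1%, fell; 15 rose and 29 fell as CPM without TMM). MiR-26a-5p fell by 0.026 on the log2 scale per 10 libraries (standard error 0.010, adjusted p = 0.0143), the sixth smallest slope in size. The slope of miR-26b-5p was -0.0074 (standard error 0.0094, adjusted p = 0.452), the second smallest. The call for miR-26a-5p depended on the scale and the model. It was lost with DESeq2 size factors (-0.013, adjusted p = 0.159), with the log2 library total as a covariate (-0.024, adjusted p = 0.0715) and with the run as a factor (-0.0022, adjusted p = 0.996), where 0 of the 51 miRNAs were called by edgeR (3 at an unadjusted p under 0.05). Without the miRNA filter the slope was 0.011 (adjusted p = 0.656). As CPM without TMM both members fell, miR-26a-5p by 0.057 (edgeR, adjusted p = 0.000352) and miR-26b-5p by 0.039 (adjusted p = 0.00448). With the run as a factor the slope of miR-26b-5p was -0.048 (standard error 0.033, adjusted p = 0.714).

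The members did not follow each other from heart to heart past the threshold. Counting error came to 77.7% of the within-run variance of miR-26b-5p and 39.1% of that of miR-26a-5p. This limits the r that could be seen, so a low r does not show that the members vary apart. Within runs, the r of their log2 CPM was 0.153 (permutation test within runs, p = 0.201, adjusted over all pairs 0.305; rho = 0.105, p = 0.359, adjusted p = 0.494; n = 85), and it was 0.0435 once libraries 3 and 46, the most distant in miR-26a-5p, were left out. By run it was -0.132 (n = 10), 0.366 (n = 11), 0.306 (n = 27), -0.562 (n = 11) and 0.262 (n = 26), above 0 in 3 of 5, and in none of the runs was it past the threshold (permutation test, adjusted p from 0.3 to 0.712). The r of this pair ranked 449 of 1275 pairs, of which the median was 0.0196. The 21 pairs within the let-7 family, whose sequences are close, had r from 0.436 to 0.873. For the let-7 members, counting error came to 7.25% (let-7f-5p) to 55.3% (let-7d-5p) of the within-run variance. Over all 32 other pairs known to share a seed, r went down to -0.138, and 4 were below the miR-26 pair. Among them were miR-30c-5p with miR-30e-5p and miR-29a-3p with miR-29b-3p (-0.128). The r of the members turned on the scale: it was 0.450 as CPM without TMM (adjusted p = 0.000722), -0.0204 with DESeq2 size factors (adjusted p = 0.912) and 0.112 with TMM factors from the other 49 miRNAs (adjusted p = 0.459).

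MiR-26a-5p varied within runs with 13 of the 50 other miRNAs, 9 in the same direction and 4 in the opposite one. This is 26% of those tested, against 43.2% called among all 1275 pairs (23% positive and 20.2% negative). The order of these shares depended on the measure: miR-26a-5p had 40% against 38% of all pairs by Spearman's rho, 56% against 49.5% as CPM without TMM and 88% against 83% with no runs. Without libraries 11 to 21 it had 20% against 23.1%. Relations are Pearson's r of log2 CPM after removal of run means over 85 hearts, with permutations within runs and p adjusted over all pairs. The miRNAs compared share library and depth.

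The closest to miR-26a-5p was miR-24-3p, a miRNA of the miR-23/27/24 clusters, with r = 0.451 (permutation p = 5e-05, adjusted p = 0.000371; rho = 0.416, permutation p = 0.00022, adjusted p = 0.00168). It was positive in 5 of 5 runs, from 0.241 in libraries 11 to 21 to 0.586 in libraries 1 to 10, and 0.381 without the 2 farthest libraries. MiR-133a-3p, which is abundant in cardiomyocytes, followed with r = 0.401 (permutation test, adjusted p = 0.00537; rho = 0.403, adjusted p = 0.00319) and was positive in 4 of 5 runs. MiR-99a-5p had r = 0.391 (permutation test, adjusted p = 0.00413; rho = 0.398, adjusted p = 0.00323; 5 of 5 runs), miR-23a-3p, which also belongs to the miR-23/27/24 clusters, had r = 0.383 (permutation test, adjusted p = 0.00371; rho = 0.366, adjusted p = 0.00652; 4 of 5 runs) and miR-125b-5p had r = 0.337 (permutation test, adjusted p = 0.0197; rho = 0.389, adjusted p = 0.00353; 4 of 5 runs). Without the 2 farthest libraries these 4 had r of 0.378, 0.448, 0.340 and 0.299. Most other tested cardiomyocyte miRNAs of the marker list went the other way from miR-133a-3p. MiR-1a-3p had r = -0.266, miR-499-5p -0.248 and miR-208a-3p -0.390, while miR-133b-3p had 0.192, and of these only miR-208a-3p was called. The other tested miRNAs of the miR-23/27/24 clusters were not called: miR-23b-3p had r = 0.246, miR-27b-3p 0.170 and miR-27a-3p -0.024.

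The most opposed to miR-26a-5p was miR-142a-3p, a miRNA of blood cells, with r = -0.448 (permutation test, adjusted p = 0.00139; rho = -0.399, adjusted p = 0.00447), negative in 4 of 5 runs and 0.184 in libraries 49 to 59. The other tested leukocyte miRNA of the marker list, miR-146a-5p, went the other way with r = 0.104 and was not called. MiR-208a-3p, from an intron of the alpha-myosin gene Myh6, had r = -0.390 (permutation test, adjusted p = 0.00878; rho = -0.320, adjusted p = 0.0254) and was negative in every run. MiR-126b-3p had r = -0.332 (permutation test, adjusted p = 0.0248; rho = -0.404, adjusted p = 0.00319), negative in every run; its locus lies opposite that of miR-126a, so its counts cannot be told from those of miR-126a where reads were counted without strand. Without the 2 farthest libraries, miR-142a-3p, miR-208a-3p and miR-126b-3p had r of -0.396, -0.368 and -0.342. MiR-142a-3p and miR-208a-3p were also among the miRNAs that varied most between hearts, with SDs of 1.64 and 1.35. Relations were compared across 4 scalings, namely TMM, DESeq2 size factors, CPM without TMM and TMM from the other 49 miRNAs. Of the 50 relations of miR-26a-5p, 7 were called each time with the same sign. Singly, these scalings called 41.3% to 49.5% of all 1275 pairs, and the share of all pairs called in all 4 was not computed. The 7 relations are with miR-24-3p, miR-133a-3p, miR-99a-5p, miR-23a-3p and miR-30d-5p (r = 0.323) among the positive and miR-142a-3p and miR-208a-3p among the negative ones. Those with miR-125b-5p and miR-126b-3p each missed the threshold in at least 1 scaling. On the TMM scale the 5 positive miRNAs called each time fell along the library numbers, as miR-26a-5p did (slopes from -0.135 to -0.050 per 10 libraries). MiR-142a-3p and miR-208a-3p rose (0.268 and 0.231). The part of this shift in the relations within runs was not tested.

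MiR-26b-5p varied within runs with 4 of 50 miRNAs, or 8.0%, all in the same direction, against 43.2% called among all 1275 pairs. Counting error came to 77.7% of its within-run variance, which limits the r that could be seen. MiR-29a-3p had r = 0.363 (permutation test, adjusted p = 0.00422; rho = 0.321, adjusted p = 0.0142; 5 of 5 runs; 0.279 without the 2 farthest libraries). MiR-30c-5p had r = 0.328 (permutation test, adjusted p = 0.0166; rho = 0.254, adjusted p = 0.0587; 4 of 5 runs; 0.263). MiR-199a-3p, a miRNA of fibroblasts, had r = 0.315 (permutation test, adjusted p = 0.0182; rho = 0.281, adjusted p = 0.0389; 0.258), and miR-199b-3p, which shares its reads, had r = 0.309 (adjusted p = 0.0202; rho = 0.272, adjusted p = 0.047; 0.255). The fifth, miR-322-5p, had r = 0.255 and was not called (permutation test, adjusted p = 0.0612). The lowest r were -0.234 with miR-22-3p, -0.204 with miR-451a and -0.191 with miR-103-3p, none of them past the threshold (permutation test, adjusted p from 0.0922 to 0.228). None of these calls of miR-26b-5p held in all 4 scalings. With TMM from the other 49 miRNAs 0 of 50 passed (3 at an unadjusted p under 0.05 by the permutation test), with DESeq2 size factors 3 did, of which 1 was among the 4, and as CPM without TMM 13 did, the 4 included. In the same order of scalings, 43.9%, 41.3% and 49.5% of all pairs were called. Of the calls of miR-26a-5p, 15.4% were also called with miR-26b-5p, against 8.0% of all 50. Of the calls of miR-26b-5p, 50% were also called with miR-26a-5p, against 26% of all 50. The overlap was only 2 miRNAs, miR-30c-5p and miR-199a-3p, and was not tested.

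**Figure D5:**
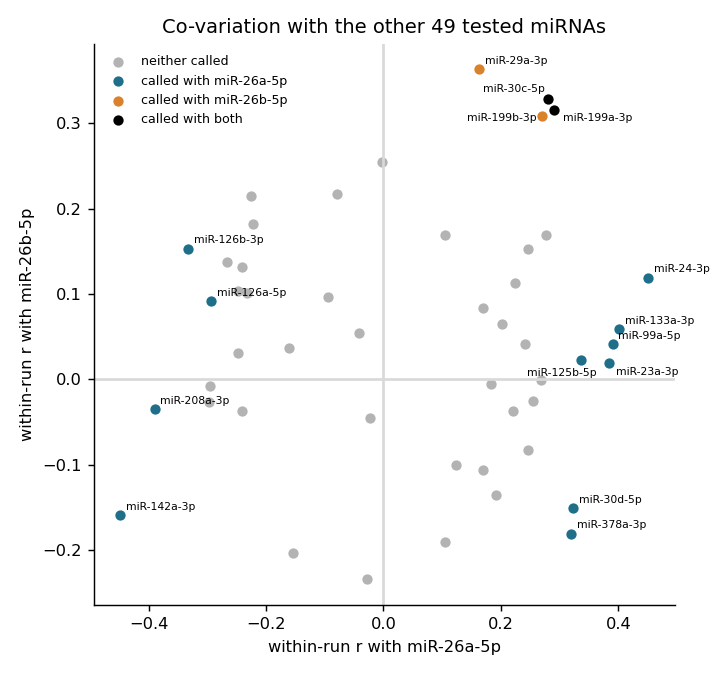
Within-run Pearson's r with miR-26a-5p (x axis) and with miR-26b-5p (y axis) for the 49 other tested miRNAs over 85 hearts, coloured by which relation passed an adjusted p of 0.05. MiR-24-3p is farthest right at 0.451 and miR-142a-3p farthest left at -0.448 with miR-26a-5p, whereas with miR-26b-5p the values run only from -0.234 to 0.363.

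Among the lists, of the 21 tested of 25 widely expressed miRNAs, 5 were called positive and 0 negative with miR-26a-5p, with a median r of 0.221, against a median of 0.138 over all 50. That is 23.8% of the list called positive, against 18% of the 50, and 0% negative, against 8%. The r of the list ran from -0.297 (miR-30e-5p) to 0.451 (miR-24-3p). By Spearman's rho miR-30e-5p was called negative (rho = -0.340, permutation test, adjusted p = 0.0154). By rho let-7a-5p, let-7b-5p, let-7c-5p and let-7d-5p were called positive in addition (permutation test, adjusted p from 0.0143 to 0.0385). With miR-26b-5p 2 of 21 were called by Pearson's r, or 9.52% against 8% of the 50, with a median r of -0.000498, against 0.0477 over all. Of the 30 miRNAs from introns of protein-coding genes other than the Ctdsp genes, 9 were tested. With miR-26a-5p, 2 were called positive and 2 negative (22.2% each; median r -0.247), and with miR-26b-5p 1 was called positive (median r 0.0305). The lists that follow hold 1 to 5 tested miRNAs each, so their counts are read beside the same shares over the 50. Of 5 cardiomyocyte miRNAs tested, 1 was called positive and 1 negative with miR-26a-5p (median r -0.248), and 0 with miR-26b-5p (median r 0.0586). Of 2 fibroblast rows tested, which share reads, 1 was called with miR-26a-5p and 2 with miR-26b-5p. Of 2 endothelial rows, 1 was called negative with miR-26a-5p and 0 with miR-26b-5p. Of 2 tested leukocyte miRNAs, 1 was called negative with miR-26a-5p and 0 with miR-26b-5p; all 6 of that list had counts, and their summed share ranged from 0.552% to 4.29% of the library. The smooth muscle miRNAs (2 tested) and the erythroid ones (1 tested) gave 0 calls with either member by the permutation test. The summed shares were 0.815% to 3.84% for the 4 fibroblast, 3.73% to 8.50% for the 2 endothelial 2.49% to 5.56% for the 3 smooth muscle and 0.205% to 1.89% for the 5 erythroid miRNAs. The liver miRNA miR-122-5p, at 0% to 0.514% of the library, was not tested. The part of cell makeup in the levels of the members was not tested.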

How the data were processed

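Total RNA of each heart was made into libraries with the QIAseq miRNA kit and sequenced as single reads of 50 bases. The authors mapped reads with HISAT2 2.0.6 to mm10 and counted them with HTSeq 0.13.5, and deposited raw counts, 1 row for each mature miRNA. The miRNA annotation, trimming, strand setting and use of molecular identifiers are not given in the sources used here. Every count column matched a library title. Library totals ranged from 1457 to 30202 (median 12248), and a count of 0 at the median total allows a share of up to 0.0245% (3 counts). No pair of the 3570 pairs of libraries agreed within sampling noise (lowest chi-square per degree of freedom, 1.29).

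The filterByExpr function of edgeR 4.0.16 (R 4.3.3; at least 10 counts in 63 libraries, total of at least 15) kept 51 miRNAs, which held 95.7% of the counts. Log2 CPM used TMM factors and a prior count of 2; log2 ratios used 0.5 added to each count, and plain ratios nothing. The trend with library number was tested with edgeR's quasi-likelihood test and relations by two-sided permutation (100000 resamples, numpy 2.4.6, within runs where stated), with Benjamini-Hochberg adjustment over all miRNAs or all pairs and a threshold of 0.05. Tables were handled with pandas 2.3.3 and intervals with scipy 1.17.1 under Python 3.11.15; plots were drawn with matplotlib 3.10.9. Alternatives used DESeq2 1.42.0 size factors and its Wald test, CPM without TMM, no filter, a prior count of 0.5 (2 for the ratio), the 84 libraries with at least 3062 counts, Spearman's rho, partial correlation given the log2 total, no runs, and leaving out each run. Both tests were tested on simulated data with known changes. For the trend test, counts were simulated independently for each miRNA, with a single level of spread and no steps between runs. Its error rate under the run shifts of these data was thus not tested.

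Named miRNAs are the members, their other arms, the 5 with the highest and 3 with the lowest within-run r for each member, neighbours in the order by SD, pairs sharing a seed, and expressed members of the lists. Neighbours in the order by counts were added to this rule after the data were seen. The members, lists and runs were chosen with earlier results of these data known.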

Additional observations from a re-analysis of the deposited data

How the results depend on the processing

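Median levels, the median and SD of the ratio and the pooled share of miR-26a-5p stayed within their spread or interval under every alternative run for them. Where a value changed, the cause was not tested. The SD of miR-26a-5p, 0.22, was 0.35 as CPM without TMM. The slope of miR-26a-5p with library number, -0.026 per 10 libraries, was -0.013 with DESeq2 size factors, -0.014 by DESeq2's Wald test, -0.057 as CPM without TMM, -0.0022 with run as a factor, -0.024 with the log2 total as a covariate and 0.011 with no miRNA filter. The slope of miR-26b-5p, -0.0074, was 0.0045 with DESeq2 size factors, 0.0034 by the Wald test, 0.027 with no filter, -0.048 with run as a factor and -0.039 as CPM without TMM. With run as a factor edgeR called 0 of 51 miRNAs (3 at an unadjusted p under 0.05). The r between the members, 0.153, was -0.0204 with DESeq2 size factors, 0.450 as CPM without TMM and 0.282 with no runs. The r of the log2 ratio with library number and with the log2 total, -0.184 and -0.132, were 0.129 and 0.0820 within runs. MiRNAs called with miR-26a-5p, 13 of 50, were 20 by Spearman's rho, 28 as CPM without TMM, 44 with no runs and 2 of 547 with no filter, where 38%, 49.5%, 83% and 0.172% of all pairs were called. For miR-26b-5p, 4 of 50, they were 13 as CPM without TMM, 27 with no runs, 1 of 547 with no filter and, with TMM from the other 49 miRNAs, 0 (3 at an unadjusted p under 0.05). That last scaling called 43.9% of all pairs. TMM without the members was added after seeing the data. Leaving out any 1 run left 9 to 14 calls for miR-26a-5p and 3 to 5 for miR-26b-5p, where 23.1% to 42% of all pairs were called. No paired analysis was possible because all libraries belong to 1 group. Depth limits the 3p arms and the split in single hearts, where the members had a median of 244 counts together.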
